A study of Caenorhabditis elegans with 16 samples.

Results

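The comparison examined here set wild-type *Caenorhabditis elegans* fed the *Escherichia coli* strain BW25113 against wild-type worms fed the strain OP50. Its members were the 4 wild-type BW25113 samples and the 4 wild-type OP50 samples, 8 of the 16 samples of the series, taken by their labels and not by any measured value. All genes with a mean of at least 10 normalized counts over these 8 samples were tested, 15714 of the 29351 genes listed. The genes just inside that limit were ZC262.4, W09C3.3 and ncs-7, with means of 10.0004, 10.0045 and 10.0053, and those just outside were K02B12.6, C08D8.3 and srsx-40, with 9.99, 9.98 and 9.98.

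The study asked how a K12-type bacterial diet alters worms that carry rnp-6(G281D), a substitution allele of a splicing factor gene, and the wild-type pair gives the response to the diet without that allele. Wild type is the N2 strain, kept at 20 °C with stocks on OP50. Worms were synchronized by egg-laying, grown for 3 days on plates seeded with BW25113 or with OP50, and harvested as whole animals on day 1 of adulthood, so every tissue, the germline and the embryos held in the uterus are in 1 RNA sample. The remaining 8 samples, rnp-6(G281D) worms on BW25113 and on OP50, enter only where the diet effect was compared between the genotypes. No label says whether the 4 samples of a group came from separate cultures, so p-values measure the spread between these samples only.

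*E. coli* is at the same time the food and the gut content of a laboratory worm. BW25113 belongs to the K12 lineage and OP50 to the B lineage, and the strains differ in how much vitamin B12 and other nutrients they supply. Worms need vitamin B12 for methionine synthase and for methylmalonyl-CoA mutase, and when the vitamin is scarce they turn on a B12-independent propionate shunt. Worms also cannot make heme, the iron-containing cofactor of cytochromes, and take it up from bacteria through dedicated transporters.

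The deposited values are estimated counts divided by a size factor per sample, here called normalized counts, and they summed to between 36804252 and 37945487 in the BW25113 samples and between 36775676 and 37323726 in the OP50 samples. The step between low values placed the depth at roughly 34697233 to 43868530 estimated counts in the BW25113 samples and 35633563 to 44989715 in the OP50 samples. On the log2 scale, the first principal component, 30.7% of the variance, put all BW25113 samples on one side and all OP50 samples on the other. BW25113 replicate 3 stood apart for many of the genes described next, often as the highest sample of its group, so values without it are given beside them. The allele of rnp-6 is a base substitution, so the level of its transcript (5425 ± 149.9 in BW25113-fed worms and 5555 ± 111 in OP50-fed worms, SD, n = 4 each) does not check the labels.

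With all genes in 1 fit, 537 genes passed an adjusted p under 0.05 and an absolute log2 fold change (log2FC, BW25113 over OP50, on log2 of the normalized count plus 1) over 0.5, which is 3.42% of the genes tested. Such genes are referred to as called, and values after ± are standard errors of the log2FC unless marked SD. More genes fell than rose: 118 were higher on BW25113 (0.751%) and 419 were lower (2.67%). The changes were modest, with a median absolute log2FC of 0.83 among the called genes, and 135 of them passed an absolute log2FC of 1 (35 higher, 100 lower). In 490 of the 537 the BW25113 and OP50 samples did not overlap, against 13.5% of all genes tested. The largest rises and falls, and most leading called members of the lists, were picked from genes without overlap. For them the lack of overlap is part of the choice and no added support. The number of called genes was 287 without OP50 replicate 1, 288 without OP50 replicate 4 and 316 without BW25113 replicate 2.

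**Figure D1:**
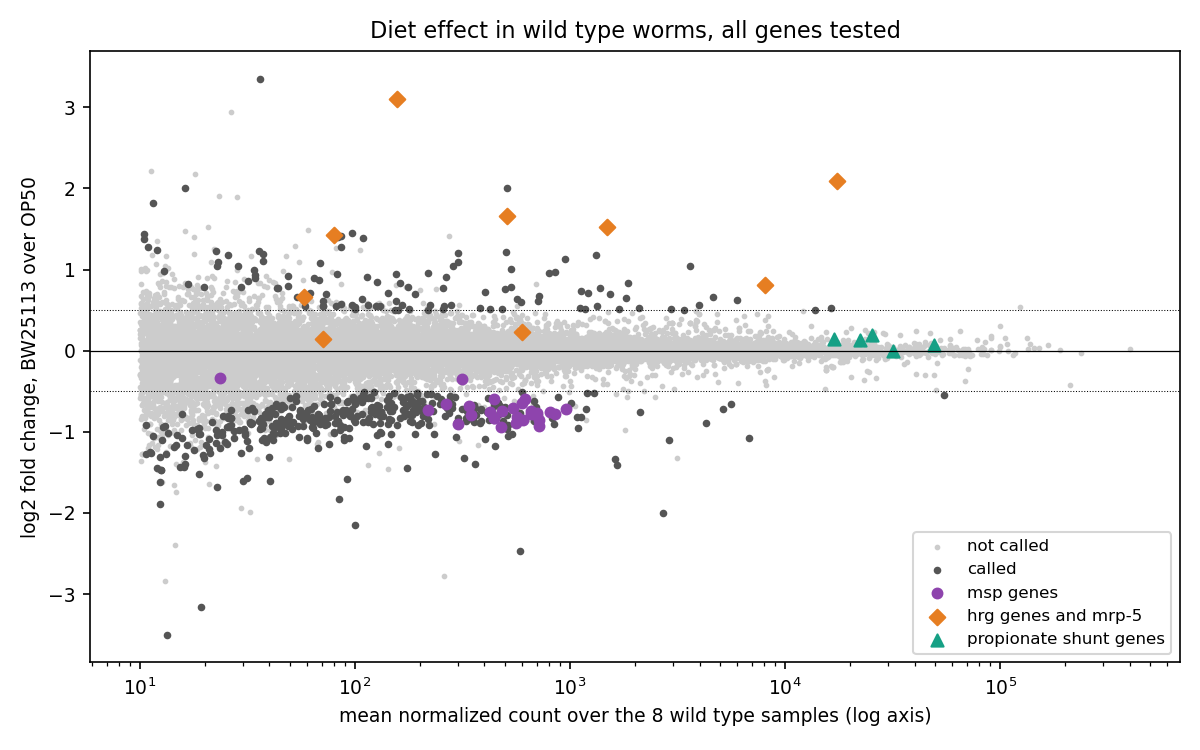
Log2 fold change (BW25113 over OP50) of each gene tested, against its mean normalized count over the 8 wild-type samples on a log axis. Each point is a gene, dotted lines mark a log2FC of 0.5 in either direction; hrg genes and mrp-5 lie mostly above, 26 of the 28 msp genes are called below, and propionate shunt genes lie near 0.

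Heme handling was the list with the largest share of genes higher on BW25113. Of 9 heme genes tested, the hrg (heme-responsive gene) family and the exporter gene mrp-5, 7 were higher on BW25113 and 0 lower, beside 0.751% of all genes, and the median log2FC of the 9 was 1.43, against -0.0033 over all genes. The number higher was 5 without OP50 replicate 4 and 6 without any other single sample. This list was drawn up after values had been seen, although the hrg genes were already part of a longer list of metal and heme genes. Summed over the 9 genes, the normalized counts lay between 38951 and 52078 in the BW25113 samples and between 13346 and 15095 in the OP50 samples.

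hrg-7 (WBGene00007605, chromosome V, 12742041 to 12744171, forward strand of WBcel235) encodes a secreted protease-like protein that signals heme status between tissues. Its normalized counts in replicates 1 to 4 were 26632, 25222, 35518 and 26248 in BW25113-fed worms, against 6889, 6199, 7178 and 6084 in OP50-fed worms. Every BW25113 sample was above every OP50 sample, with a mean 4.31 times as high (log2FC 2.098 ± 0.09, adjusted p = 4.93e-07). hrg-3 (WBGene00010256, chromosome V, 9756468 to 9757019, forward strand) encodes a heme chaperone that the intestine secretes toward other tissues and embryos. It had 224, 225, 445 and 238 in BW25113-fed worms, against 33.2, 36.4, 32.2 and 22.5 in OP50-fed worms. The groups were far apart, and the change was the second largest rise among the genes named by the rule (log2FC 3.10 ± 0.23, adjusted p = 1.97e-05). BW25113 replicate 3 was well above its companions, and the log2FC without it was 2.86.

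The genes of the heme importers rose as well. hrg-4 (WBGene00009493, chromosome IV, 11030143 to 11030993, reverse strand), whose product brings heme across the intestinal membrane, had 739, 741, 868 and 739 in BW25113-fed worms, against 293, 216, 229 and 241 in OP50-fed worms (log2FC 1.66 ± 0.09, adjusted p = 4.2e-06). hrg-1 (WBGene00019830, chromosome X, 4008057 to 4016221, reverse strand), whose product moves heme out of endosomes and lysosome-related organelles, had 2107, 1818, 2867 and 1985 in BW25113-fed worms, against 730.2, 596, 972 and 747 in OP50-fed worms (log2FC 1.53 ± 0.15, adjusted p = 0.000161). In both genes the groups did not overlap, and replicate 3 was the highest BW25113 sample. mrp-5 (WBGene00003411, chromosome X, 14938502 to 14946317, reverse strand), which encodes the transporter that exports heme from the intestine, had 9842, 9999.7, 11432 and 9983 in BW25113-fed worms, against 6200.2, 5545, 5969 and 5831 in OP50-fed worms. Again the groups did not overlap (log2FC 0.81 ± 0.05, adjusted p = 5.48e-06). Without BW25113 replicate 3 the log2FC of hrg-7, hrg-4, hrg-1 and mrp-5 were 1.99, 1.602, 1.39 and 0.76, and all 4 stayed called.

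The other 4 members changed less, or kept their calls in fewer fits. hrg-2, which encodes a heme-binding membrane protein of the hypodermis, had 84.2, 83.7, 203 and 99.0 in BW25113-fed worms, against 30.2, 42.4, 63.0 and 31.5 in OP50-fed worms (log2FC 1.43 ± 0.30, adjusted p = 0.0187). Its call was lost without OP50 replicate 1 or 4, and its log2FC without BW25113 replicate 3 was 1.13. hrg-9, whose product helps to mobilize stored heme, had a log2FC of 0.67 (adjusted p = 0.0361), a call lost in 7 of the 8 fits that left out 1 sample (log2FC 0.55 to 0.77). hrg-10, a relative of hrg-9, and hrg-6, a relative of hrg-4, were not called, at log2FC 0.23 (95% interval 0.08 to 0.38) and 0.14 (95% interval -0.25 to 0.53).

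**Figure D2:**
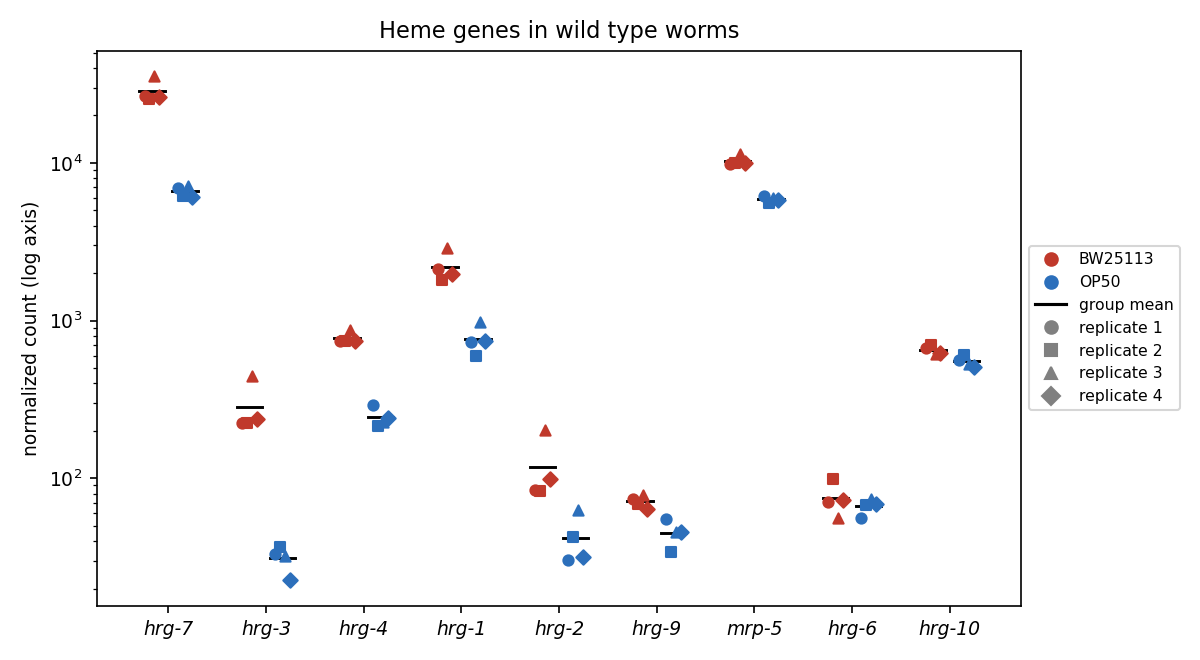
Normalized counts of 9 heme genes in each wild-type sample, on a log axis; symbols mark replicates and black lines the group means. BW25113 samples lie above all OP50 samples in every gene but hrg-6, and replicate 3 is the highest BW25113 sample in hrg-7, hrg-3, hrg-4, hrg-1, hrg-2, hrg-9 and mrp-5.

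Genes of iron and metal storage did not follow the heme genes as a whole. In the list of 36 metal and heme genes, 8 were higher (22.2%, beside 0.751% of all genes) and 0 lower (beside 2.67%). Of the 8, 6 were hrg genes and the others were mtl-2 and smf-3. mtl-2, a metallothionein gene, had 245, 259, 207 and 232 in BW25113-fed worms, against 140.4, 159, 142.4 and 134 in OP50-fed worms (log2FC 0.70 ± 0.10, adjusted p = 0.00178). smf-3, which encodes an iron importer of the intestine, was called at log2FC 0.54 (adjusted p = 0.038). The ferritin gene ftn-2 had 5213 ± 279 in BW25113-fed worms and 5545 ± 345 in OP50-fed worms (SD, n = 4 each; log2FC -0.09, 95% interval -0.19 to 0.02), and ftn-1, a ferritin gene that is repressed when iron is low, had 6.55, 6.74, 6.15 and 5.93 in BW25113-fed worms, against 10.4, 7.07, 26.9 and 17.5 in OP50-fed worms. The ftn-1 samples did not overlap, but the spread on OP50 was wide and the gene was not called (log2FC -1.010, 95% interval -1.80 to -0.21, adjusted p = 0.13). In the table of FPKM, which are scaled by transcript length and library size, the same test gave ftn-1 a log2FC of -0.99 (adjusted p = 0.0452).

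gsto-1 and cest-8 were also among the 10 largest rises. gsto-1 (WBGene00016204, chromosome III, 7945542 to 7947018, reverse strand), an omega-class glutathione transferase gene, had 711, 656, 1210.2 and 719.5 in BW25113-fed worms, against 196, 186, 207 and 202 in OP50-fed worms. Every BW25113 sample exceeded every OP50 sample (log2FC 2.01 ± 0.16, adjusted p = 2.88e-05; 1.81 without BW25113 replicate 3). Of 40 glutathione transferase genes tested 4 were higher (10.0%, beside 0.751% of all genes) and 0 lower. gst-10 (log2FC 0.77 ± 0.07, adjusted p = 0.000107), gst-6 (log2FC 0.79 ± 0.10, adjusted p = 0.00149) and the low-count gst-29 (log2FC 1.2404, its call lost without BW25113 replicate 2 or OP50 replicate 1 or 4) were the rest. cest-8, a carboxylesterase gene, had 97.5, 167, 161 and 145 in BW25113-fed worms, against 41.1, 47.4, 64.9 and 51.2 in OP50-fed worms (log2FC 1.45 ± 0.19, adjusted p = 0.00151).

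The largest fitted rise, that of the sodium/proton exchanger gene nhx-6, came from low counts and uneven samples. Its normalized counts were 25.0, 24.1, 208 and 17.2 in BW25113-fed worms, against 0, 8.62, 3.71 and 3.99 in OP50-fed worms. Replicate 3 alone passed 100, and the fitted log2FC of 3.35 (adjusted p = 0.031) came to 2.56 without it, while the call was lost without BW25113 replicate 2 or OP50 replicate 1, 3 or 4 and in the FPKM table. The C-type lectin gene clec-78 (log2FC 1.41; 1.14 to 1.66 over the fits without 1 sample) and the kinesin motor gene klp-11 (1.398; 1.104 to 1.65) also lost their calls, in 5 and 4 of those 8 fits and in the FPKM table.

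Cathepsin-like protease genes moved in both directions. cpr-8, of the cathepsin B family, had 1053, 1050.0, 1312 and 1079 in BW25113-fed worms, against 599.7, 537, 587 and 562 in OP50-fed worms (log2FC 0.97 ± 0.07, adjusted p = 1.97e-05). cpr-5 and cpr-4 were just over the threshold at 0.52 and 0.51. Without BW25113 replicate 3 both were under it, at 0.46 and 0.43. cpr-1 went the other way, with 3802, 4369, 3717 and 3653 in BW25113-fed worms, against 6751, 6559, 5815 and 6364 in OP50-fed worms (log2FC -0.72 ± 0.06, adjusted p = 3.97e-05). In all, 3 of 35 lysosomal protease and V-ATPase genes were higher and 2 lower (8.57% and 5.71%, beside 0.751% and 2.67% of all genes). The second lower gene was cpr-3, whose samples overlapped (log2FC -0.79, adjusted p = 0.0468, lost in 7 of the 8 fits without 1 sample). Summed over the 35 genes, which are not cpr genes alone, normalized counts ran from 476018 to 502920 in the BW25113 samples and from 517073 to 555009 in the OP50 samples. The 11 aspartyl protease genes tested, listed after values had been seen, summed to 196103 to 213321 in the BW25113 samples and 244135 to 269025 in the OP50 samples. Of these 11, 7 had a log2FC below 0 and 4 above.

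Among genes with a mean of at least 50 in the higher group, asp-12 fell the most on BW25113. asp-12 (WBGene00017678, chromosome V, 8269210 to 8272056, forward strand), an aspartyl protease gene, had 144, 167, 179 and 224 in BW25113-fed worms, against 1145, 775, 980.0 and 1075 in OP50-fed worms. Its mean on BW25113 was 0.18 of that on OP50, and the groups were several times farther apart than the spread within either (log2FC -2.47 ± 0.14, adjusted p = 4.2e-06). asp-14, of the same family, had 1073, 1023, 642 and 986 in BW25113-fed worms, against 2418, 2484, 2073 and 2292 in OP50-fed worms (log2FC -1.34 ± 0.13, adjusted p = 0.000177; -1.17 without BW25113 replicate 3, the lowest sample). endu-2 (WBGene00019779, chromosome X, 8242301 to 8247869, forward strand), which encodes an EndoU-type ribonuclease, had 1149, 993, 1022 and 1176 in BW25113-fed worms, against 4678, 3994, 4329 and 4283 in OP50-fed worms. The groups were far apart, and endu-2 had one of the lowest adjusted p of all genes tested (log2FC -1.99 ± 0.06, adjusted p = 1.34e-08). cpt-4, of the carnitine palmitoyltransferase family that carries fatty acids into mitochondria, had 25.2, 36.5, 41.9 and 35.5 in BW25113-fed worms, against 113, 112, 193 and 240.1 in OP50-fed worms (log2FC -2.15 ± 0.26, adjusted p = 0.000647). aat-7, an amino acid transporter gene, fell to 16.4, 26.9, 17.5 and 17.8 in BW25113-fed worms, against 50.6, 62.6, 65.9 and 65.2 in OP50-fed worms (log2FC -1.61 ± 0.20, adjusted p = 0.000873). The remaining ones of the 10 largest were cyp-35A3, clec-52, clec-47, F49C12.7 and cyp-14A5, at log2FC -1.58, -1.44, -1.41, -1.39 and -1.32. All 10 of these largest falls kept their calls whichever single sample was left out.

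**Figure D3:**
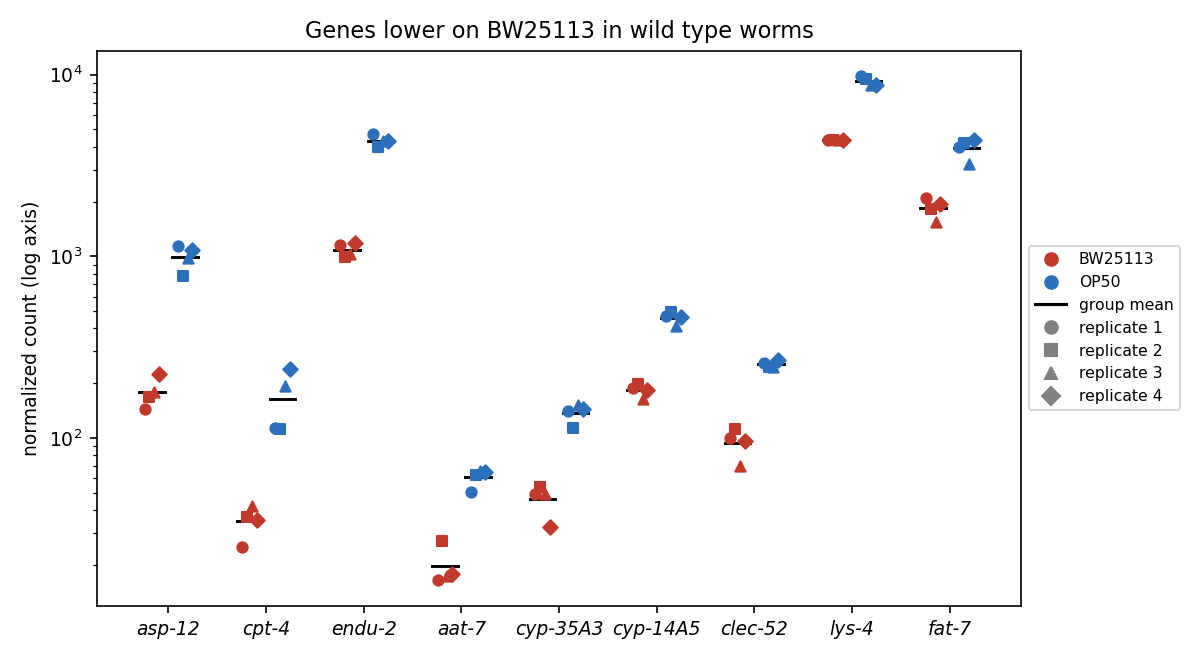
Normalized counts of 9 genes lower on BW25113 in each wild-type sample, on a log axis; symbols mark replicates and black lines the group means. In each gene the 4 BW25113 samples lie below all 4 OP50 samples, as in asp-12, with 179 on average against 994. All but fat-7 were picked from genes without overlap.

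Genes of cytochrome P450 enzymes, which oxidize lipids and foreign compounds, had 9 lower and 1 higher of 54 tested, 16.7% and 1.85%, beside 2.67% and 0.751% of all genes, with a list median of -0.09. The higher one was cyp-33C9 (0.51). cyp-14A5 had 187, 198, 164 and 184 in BW25113-fed worms, against 468, 491, 414 and 461 in OP50-fed worms (log2FC -1.32 ± 0.08, adjusted p = 6e-06). cyp-35A3 had 49.3, 53.8, 48.95 and 32.1 in BW25113-fed worms, against 141, 114.1, 151 and 144 in OP50-fed worms, and cyp-34A9 had a log2FC of -0.90 (adjusted p = 0.00609). The call of cyp-13A4 (log2FC -1.012) was lost in 4 of the 8 fits without 1 sample.

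Genes of lysozymes, lectins and infection response, with which worms meet bacteria, had both lower and higher members, and of all called genes 78.0% were lower. Of 56 lysozyme and antimicrobial peptide genes, 6 were lower (10.7%, beside 2.67% of all genes) and 1, lys-2, higher (0.50). lys-4 (WBGene00003093, chromosome IV, 11621429 to 11623174, reverse strand), a lysozyme gene, had 4373, 4370.1, 4351 and 4379 in BW25113-fed worms, against 9815, 9425, 8737 and 8784 in OP50-fed worms. The BW25113 samples of lys-4 were almost equal, and its adjusted p was also among the lowest (log2FC -1.07 ± 0.04, adjusted p = 2.36e-08). lys-6 (log2FC -1.03 ± 0.11, adjusted p = 0.000333), the low-count fip-6 (log2FC -1.31) and lys-10 (-1.09, its call lost without OP50 replicate 4) fell too. lys-5 and lys-7 (-0.95 and -0.90) were the others. The count of lower genes was 12 when blocked on the replicate number and 11 without BW25113 replicate 3. Of 102 C-type lectin genes, whose products bind sugars, 9 were lower (8.82%) and 2, clec-78 and clec-190 (0.52), higher. clec-47 had 935, 926, 850.3 and 885 in BW25113-fed worms, against 2401, 2492, 2286 and 2406 in OP50-fed worms (log2FC -1.41 ± 0.04, adjusted p = 1.34e-08), clec-52 had a log2FC of -1.44, and the low-count clec-3 and clec-70 had -1.603 and -3.16. Of 20 genes of infection response and insulin signalling output, 5 were lower (25.0%) and 0 higher, namely asp-12, asp-14, irg-5 (-0.90), dod-24 (log2FC -0.88 ± 0.08, adjusted p = 9.47e-05) and irg-4 (log2FC -0.70), whose call was lost in 6 of the 8 fits without 1 sample. The number lower was 3 without BW25113 replicate 2 or 3 or OP50 replicate 1, 2 or 4. No gene of the pals family, which responds to intracellular pathogens, was called among 16, and none of 15 small and cytosolic heat shock genes.

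In lipid metabolism, fat-7, acox-1.5 and icl-1 fell along with several genes of fatty acid activation and oxidation. fat-7 (WBGene00001399, chromosome V, 7151353 to 7153146, reverse strand), a stearoyl-CoA desaturase gene that makes oleic acid, had 2096, 1809.8, 1546 and 1941 in BW25113-fed worms, against 3971, 4222, 3226 and 4383 in OP50-fed worms. Its groups did not overlap (log2FC -1.09 ± 0.10, adjusted p = 0.000101), and it was the one called of 7 desaturase genes. A list of 42 genes held acyl-CoA synthetase, carnitine palmitoyltransferase, acyl-CoA dehydrogenase and related genes. Of these, 6 were lower (14.3%, beside 2.67% of all genes) and 1, hacd-1, higher (0.51). Beside cpt-4, acs-18 and cpt-5 (-0.71 and -0.62), acdh-8, an acyl-CoA dehydrogenase gene, was lower (log2FC -0.92 ± 0.17, adjusted p = 0.00856). The other lower genes, acdh-5 and acs-10 (log2FC -0.70 and -0.63), lost their calls in 6 and 7 of the 8 fits without 1 sample. The count of lower genes was 3 without BW25113 replicate 2 or OP50 replicate 4. acox-1.5, an acyl-CoA oxidase gene of the peroxisome, had 602, 586, 552 and 613 in BW25113-fed worms, against 1327, 1043, 994 and 1051 in OP50-fed worms (log2FC -0.90 ± 0.08, adjusted p = 8.07e-05). icl-1, whose enzyme carries the glyoxylate cycle that turns fat into sugar, had 3693, 3876, 5436 and 4451 in BW25113-fed worms, against 5941, 5704, 7914 and 7900.0 in OP50-fed worms (log2FC -0.65 ± 0.13, adjusted p = 0.0142). None of the 6 vitellogenin genes, which encode yolk proteins, was called, and their log2FC lay between 0.01 and 0.19. sbp-1, the gene of the SREBP-type regulator of lipid synthesis, had 1069.6 ± 70.6 in BW25113-fed worms and 986 ± 114.6 in OP50-fed worms (SD, n = 4 each; log2FC 0.12, 95% interval -0.05 to 0.29).

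Among transporter genes, 7 of 122 were lower (5.74%, beside 2.67% of all genes) and 2, mrp-5 and haf-7 (0.60), higher. pgp-6, an ABC transporter gene of the P-glycoprotein family, had 280.7, 295, 213 and 306 in BW25113-fed worms, against 613, 753, 526 and 588 in OP50-fed worms (log2FC -1.18 ± 0.13, adjusted p = 0.000316). Beside aat-7, snf-10, pgp-5, pgp-1 and slc-36.5 fell (-0.74, -0.68, -0.66 and -0.61), and the low-count snf-2 (log2FC -0.81) lost its call in 6 of the 8 fits without 1 sample. The number lower was 4 of 122 without BW25113 replicate 2 or OP50 replicate 4.

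The vitamin B12 genes, by contrast, mostly differed by less than the size threshold between the diets in wild type. None of the 5 propionate shunt genes was called. acdh-1, the first and most B12-sensitive gene of the shunt, had 52404, 51229.5, 48471 and 49739.5 in BW25113-fed worms, against 47647, 48622, 48578 and 47755 in OP50-fed worms. These values overlapped (log2FC 0.07, 95% interval 0.01 to 0.12, adjusted p = 0.156), and the interval lies well within 0.5 of 0. hphd-1 was slightly higher, with 28002, 27464, 26028 and 26558 in BW25113-fed worms, against 23202, 24215, 23996 and 22740.2 in OP50-fed worms. That difference passed the adjusted p but not the size (log2FC 0.20 ± 0.03, adjusted p = 0.00257), as did hach-1 (log2FC 0.15 ± 0.03, adjusted p = 0.0265). ech-6 and alh-8 were at 0.13 (95% interval 0.05 to 0.21) and -0.0005 (95% interval -0.08 to 0.08). The order of the 5 genes by log2FC was hphd-1, hach-1, ech-6, acdh-1 and alh-8, with overlapping intervals between neighbours.

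None of the 8 genes of the B12-dependent propionate route and B12 handling was called either. mmcm-1, the gene of methylmalonyl-CoA mutase, had 6409 ± 96.1 in BW25113-fed worms and 6258 ± 77.9 in OP50-fed worms (SD, n = 4 each; 95% interval -0.01 to 0.08 for the log2FC). pcca-1 was at 0.10 (adjusted p = 0.0435), pmp-5, which encodes a B12 transporter, at 0.08 (95% interval -0.03 to 0.20), and mce-1 at -0.18 (95% interval -0.29 to -0.07). Of the rest, mmab-1 was at 0.09, pccb-1 at 0.03, cblc-1 at -0.04 and mmaa-1 at -0.05.

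Of 20 methionine cycle and folate genes, 1 was called, sams-5, an S-adenosylmethionine synthetase gene, with 253, 211, 202 and 193 in BW25113-fed worms, against 375, 339, 303 and 389.8 in OP50-fed worms (log2FC -0.71 ± 0.10, adjusted p = 0.00265). The synthetase gene sams-1 was at -0.02 (95% interval -0.23 to 0.19), and sams-3 and sams-4 were at -0.11 and -0.06. metr-1, the gene of the B12-dependent methionine synthase, had 14237, 14119, 17111 and 16101 in BW25113-fed worms, against 16148, 16056, 20064 and 18810.0 in OP50-fed worms. Its groups overlapped (log2FC -0.21, adjusted p = 0.157), but each BW25113 sample was below the OP50 sample of the same number, and blocking on the replicate number gave an adjusted p of 0.000172, still with a log2FC under the threshold in size. mthf-1, whose enzyme makes the methyl donor for that reaction, had 10298, 10769, 9237 and 10035 in BW25113-fed worms, against 11384, 11987, 11539 and 11159 in OP50-fed worms (log2FC -0.19 ± 0.04, adjusted p = 0.0202), and mtrr-1, whose enzyme reactivates methionine synthase, was at -0.13 (adjusted p = 0.047). Both were lower by less than the size threshold, with no overlap. folt-2, a folate transporter gene, was higher by less than that size, with 26992, 24869, 25548 and 24887 in BW25113-fed worms, against 21349.9, 21064, 22066 and 21216 in OP50-fed worms (log2FC 0.25 ± 0.03, adjusted p = 0.000452). atic-1 (adjusted p = 0.0476), gldc-1, cth-2, folt-1, dao-3, cbs-1 and cth-1 lay between 0.11 and 0.23, ahcy-1, mel-32, dhfr-1 and tyms-1 between -0.06 and 0.01, and the low-count cbs-2 at -0.53 (95% interval -1.08 to 0.03). Blocking on the replicate number left 0 called higher and 1 lower, but some small differences had low adjusted p. These were 0.00142 for gldc-1, 0.000872 for cth-2 and 0.00234 for atic-1, all higher, and 0.00333 for mthf-1 and 0.0187 for sams-3, both lower.

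The regulators of these genes gave 0 called of 8. nhr-10 and nhr-68, which drive the response of shunt genes to propionate, were at 0.00 (95% interval -0.19 to 0.19) and -0.01 (95% interval -0.15 to 0.14). nhr-114, a nuclear receptor gene that responds to a low methionine cycle, had 3271, 3084, 1901 and 2534 in BW25113-fed worms, against 3865, 3651, 2572 and 2781 in OP50-fed worms. Samples with the same number moved together, and the unblocked interval was wide (log2FC -0.26, 95% interval -0.63 to 0.11), and with the block the adjusted p was 0.00401. nhr-23, nhr-49, nhr-80 and mdt-15 lay between -0.08 and 0.00. None of 181 other nuclear receptor genes was called.

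**Figure D4:**
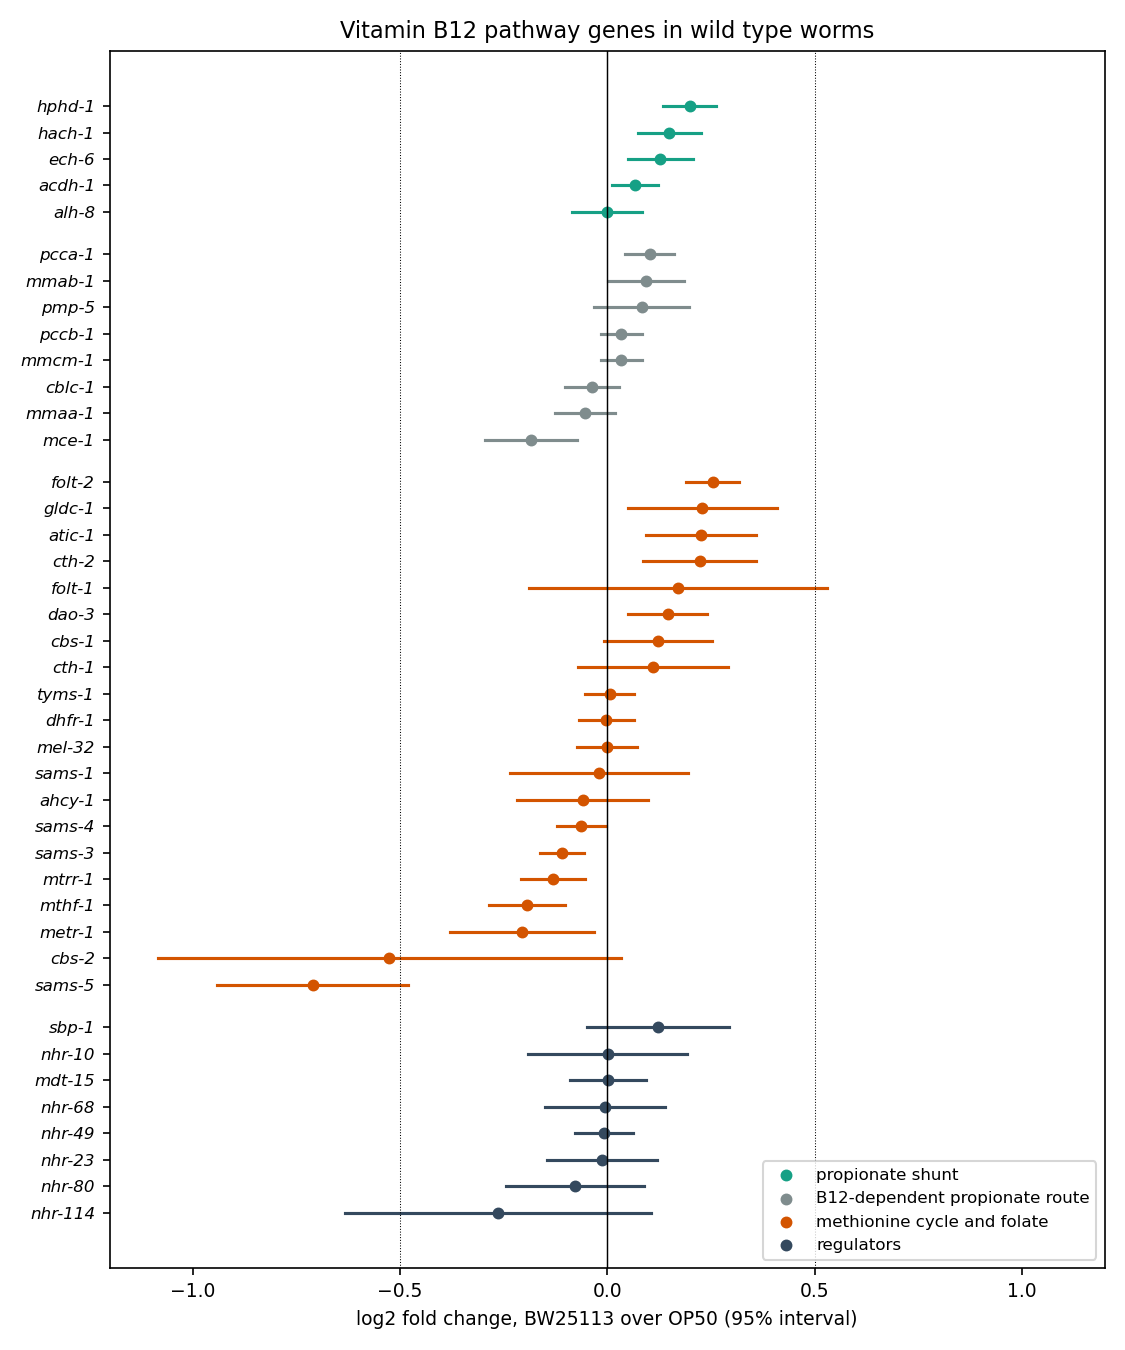
Log2 fold change (BW25113 over OP50) of all members of the 4 vitamin B12 lists in wild-type worms with 95% intervals from the fit on 8 samples; dotted lines mark 0.5 in either direction. sams-5, at -0.71, and cbs-2, at -0.53 and not called, lie past a dotted line, and all 5 shunt genes lie between -0.0005 and 0.20.

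The sperm list held more genes called lower on BW25113 than any other list. Hermaphrodites make sperm as larvae and store them as adults, and the major sperm proteins (MSP), which drive sperm crawling, come from many near-identical gene copies. Of 60 sperm genes tested, 33 were lower and 0 higher, beside 2.67% and 0.751% of all genes, and the list median was -0.69. The 28 msp genes accounted for most: 26 were called lower and all 28 had a log2FC below 0, between -0.94 and -0.33. Summed over these 28 genes, the normalized counts were 13913, 9710.4, 9803 and 10439.8 in BW25113-fed worms, against 19807, 19619.7, 15027 and 19746 in OP50-fed worms. Every BW25113 sum was below every OP50 sum, and the summed mean on BW25113 was 0.591 of that on OP50. Because the copies share reads, the value of a single msp gene is uncertain. msp-78 and msp-19 were the largest falls among them (log2FC -0.94 ± 0.14, adjusted p = 0.00248, and log2FC -0.93). In whole animals, fewer sperm and less RNA per sperm cannot be told apart.

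Single-copy and other sperm genes were less uniform. spe-8, which encodes a kinase of sperm activation, had 16.4, 11.5, 15.7 and 18.6 in BW25113-fed worms, against 39.4, 32.3, 39.2 and 30.6 in OP50-fed worms (log2FC -1.14 ± 0.21, adjusted p = 0.00863), but it was the one called of 18 spe genes, whose median was -0.25 with 14 below 0. ssp-34, of the sperm-specific ssp family, had 113, 104.4, 107 and 108 in BW25113-fed worms, against 226, 232, 163 and 206 in OP50-fed worms (log2FC -0.92 ± 0.12, adjusted p = 0.00116), 1 of 4 lower among 11. In 35 genes of further sperm-associated families, listed after values had been seen, 25 were lower and 0 higher with a median of -0.75, among them 8 of 9 nspd genes such as nspd-5 (log2FC -1.06 ± 0.16, adjusted p = 0.00291) and 3 of 4 ssq genes such as ssq-4 (log2FC -0.92 ± 0.16, adjusted p = 0.00628). The 25 came to 14 without OP50 replicate 1 and 16 without OP50 replicate 4. alg-4, which encodes an Argonaute of spermatogenesis, had 152, 113, 104.2 and 99.9 in BW25113-fed worms, against 205, 220.0, 177 and 225 in OP50-fed worms (log2FC -0.83 ± 0.14, adjusted p = 0.00576). The FPKM table lists none of the msp genes, so their fall rests on the normalized counts. Of the 23 listed sperm genes that it holds, 3 were called lower in each table, and of the 17 further ones, 11 in each.

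Markers of tissues and stages are set beside this. Of the 9 sperm markers tested of 11, 4 were lower, and their summed normalized counts ran from 1566 to 2255 in the BW25113 samples and from 2238 to 3034 in the OP50 samples. No marker was called among 10 of the germline, 11 of the oocyte and eggshell, 7 of the intestine, 5 of the hypodermis, 6 of body wall muscle, 5 of the pharynx, 8 of neurons and 3 of the uterus and spermatheca, with list medians between -0.07 and 0.05. The early embryo markers (5 tested, none called) had a median of 0.26, with sums from 1941 to 2559 in the BW25113 samples and from 1559 to 2163 in the OP50 samples. The larval molt markers (8 tested, none called, 3 higher with the replicate block) had a median of 0.14, with sums from 2028 to 2923 in the BW25113 samples and from 1866 to 2258 in the OP50 samples. Among them lpr-3, noah-1 and mlt-11 had log2FC of 0.85, 0.82 and 0.75 and missed the adjusted p (0.0806, 0.064 and 0.0501). The rest lay between -0.16 (nas-37) and 0.24 (ptr-4). Whether a difference in developmental timing has a part in the lower sperm transcripts was not tested.

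Several large gene sets gave no calls or few. None of 33 proteasome, 71 mitochondrial ribosome, 18 oocyte or 68 histone genes was called. In 109 cuticle collagen genes 4 were higher and 1 lower (3.67% and 0.917%, beside 0.751% and 2.67% of all genes), with sqt-3 (log2FC 1.09), col-138 (1.05), col-110 (0.64) and col-150 (0.50) higher and col-168 lower (-1.004). Of the col genes, col-110 alone kept its call in every fit without 1 sample, and the number higher was 8 with the block and between 1 and 5 over the fits without 1 sample. F-box genes, whose products mark proteins for breakdown, gave 4 higher (fbxc-20, fbxa-141, fbxc-22 and fbxc-18, log2FC 1.44, 0.93, 0.71 and 0.51) and 1 lower (fbxa-14, -0.59) of 236, or 1.69% and 0.424%. Except for fbxc-18, not followed over these fits, each lost its call in at least 3 of the 8 fits without 1 sample.

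Whether the wild-type response to diet differed from that in rnp-6(G281D) was tested as the diet effect in wild type minus the diet effect in rnp-6(G281D), over all 16 samples. By that test 369 genes were called (2.35%), 312 with a positive and 57 with a negative difference. Of the 537 genes called in wild type, 39 (7.26%) were among them. The wild-type samples are part of both tests, so this overlap is no separate evidence. The mutant's own estimate had the same sign as that of wild type in 512 of the 537. The share with the same sign over all genes tested was not computed. Among genes called lower in wild type the median log2FC was -0.83 in wild type against -1.02 in rnp-6(G281D), and among those called higher it was 0.78 in wild type against 0.57 in rnp-6(G281D); the choice of these genes by their wild-type values bears on both medians.

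For several of the leading genes no difference between the genotypes was called. hrg-4 had a log2FC of 1.66 in wild type, against 1.604 in rnp-6(G281D) (difference 0.06, 95% interval -0.32 to 0.43), and hrg-1 1.53 and 1.498 (-0.49 to 0.54). For endu-2 the effects were -1.99 in wild type, against -2.34 in rnp-6(G281D), for lys-4 -1.07 and -1.14, and for fat-7 -1.09 and -1.08. Of the 60 genes of the sperm list 0 were called for the difference, beside 2.35% of all genes tested. The median log2FC of that list was -0.69 in wild type against -0.99 in rnp-6(G281D). acdh-1 was near 0 in both genotypes, 0.07 in wild type against 0.08 in rnp-6(G281D).

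Of the 39 genes, 19 had opposite signs, 10 the same sign with a larger effect in wild type and 10 the same sign with a larger effect in rnp-6(G281D). hrg-3 rose more in wild type, at 3.10 against 1.238 in rnp-6(G281D) (difference 1.86 ± 0.33, adjusted p = 0.00214). asp-14 fell in wild type at -1.34, against -0.15 in rnp-6(G281D) (-1.19 ± 0.19, adjusted p = 0.00103). cest-8 had 1.45 in wild type, against -0.41 in rnp-6(G281D), and cpr-4 and cpr-5 also had opposite signs. pho-11, an acid phosphatase family gene, had a smaller effect in wild type, 0.62 against 1.99 in rnp-6(G281D).

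**Figure D5:**
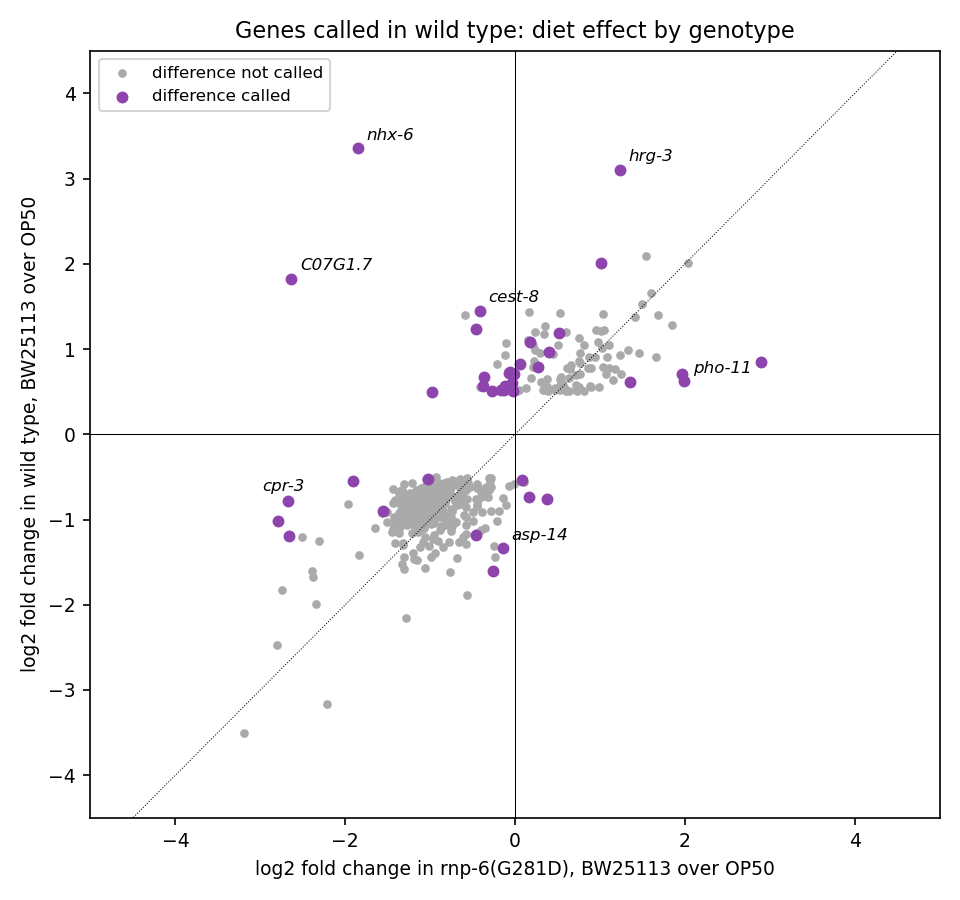
Diet effect (log2FC, BW25113 over OP50) in wild type on the vertical axis against that in rnp-6(G281D) on the horizontal axis, for the 537 genes called in wild type; the dotted line marks equal effects and purple points the 39 genes whose difference was called. 512 genes lie in the quadrants of equal sign (the share over all genes was not computed), and nhx-6 and C07G1.7 lie farthest above the line.

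Y41C4A.32, which the study used as its reporter of the mutant state, was not called for the diet effect in wild type. Its normalized counts were 60.1, 62.5, 180.3 and 56.7 in BW25113-fed worms, against 92.1, 85.8, 76.4 and 67.0 in OP50-fed worms. The groups overlapped, since replicate 3 of BW25113 stood above every other sample and the other 3 BW25113 samples lay below all OP50 samples (log2FC -0.02, 95% interval -0.71 to 0.68; -0.41 without replicate 3, adjusted p = 0.164). The diet effect was -0.02 in wild type, against -3.84 in rnp-6(G281D), a difference of 3.82 ± 0.46 (adjusted p = 4.93e-05).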

How the data were processed

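RNA was measured in whole day 1 adult worms by stranded, ribosomal RNA-depleted sequencing. The authors estimated transcript abundance with kallisto 0.46.1 on WBcel235 (Ensembl release 89) and used DESeq2 1.24. They deposited normalized counts (estimated counts divided by a size factor, a signal that is not whole) and a second table in FPKM; the submitters' processing notes also name Cufflinks 2.2.1, whose role is not given in the sources used here. Because the values are not raw counts, no count test was run. The approximate depths were read from the steps between low values. Gene positions were taken from Ensembl release 115 of WBcel235.

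The 15714 genes whose mean over the 8 wild-type samples reached 10 were fitted with limma 3.58.1 (R 4.3.3; lmFit, eBayes with trend) on log2(normalized count + 1), with Benjamini-Hochberg adjustment over all genes tested. The pseudocount makes the log2 fold changes of low genes too small. The difference between genotypes was fitted on all 16 samples in 4 groups. FPKM were tested as log2(FPKM + 0.1). Figures were drawn with matplotlib 3.10.9. Tested on simulated data with 200 changed genes among 15714, the wild-type fit recovered 171, 183 and 199 at log2 changes of 0.75, 1 and 2, with 3, 3 and 4 false calls. The changed genes were all above about 50 normalized counts, and the simulated samples were independent, with nothing shared by replicate number. The simulation therefore does not give the recovery for lower genes or the false calls in samples that share a number.

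The members, gene lists and tests were chosen with earlier results of these data known. Genes were named by a rule: the 10 largest rises and falls among called genes with no overlap between groups and a mean of at least 50 in the higher group, all members of the 4 vitamin B12 lists, up to 4 called members of each other list with at least 3 called, 5 with the largest difference between genotypes, and Y41C4A.32, fat-7, sbp-1 and rnp-6. The remaining genes were named after their values were seen, among them hrg-9, hrg-6, hrg-10, mrp-5, ftn-1, ftn-2, mtl-2, icl-1, alg-4 and acox-1.5. Replicate numbers come from the sample titles, with no statement of what they share. Deviations from the group means correlated between same-numbered samples at 0.569, 0.402, 0.528 and 0.239 over 10228 genes whose mean reached 100. Between samples with different numbers the correlations ran from -0.531 to 0.307. BW25113 replicate 2 with OP50 replicate 1 (0.307), 3 with 4 (0.297) and 1 with 2 (0.262) were above the lowest same-number value. The correlations therefore do not settle that the numbers are pairs. The numbers were taken to pair the samples only in an alternative, a fit with the number as a block. The others were the pseudocount, the filter, the scaling, the FPKM table, the threshold, all 16 samples in 1 fit and leaving out each sample.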

Additional observations from a re-analysis of the deposited data

Results flagged for a closer look

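A sample far from its group was looked for in 240 groups of 4 wild-type samples, for the genes named, as a gap to the nearest other sample above Dixon's 95% critical share of the group's range. Such a gap was found 19 times, and chance gives about 12. BW25113 replicate 3 was the distant sample in 11 of them. It had 208 normalized counts for nhx-6 (other BW25113 samples 17.2 to 25.0), 445 normalized counts for hrg-3 (other BW25113 samples 224 to 238), 35518 normalized counts for hrg-7 (other BW25113 samples 25222 to 26632), 1210.2 normalized counts for gsto-1 (other BW25113 samples 656 to 719.5), 868 normalized counts for hrg-4 (other BW25113 samples 739 to 741), 642 normalized counts for asp-14 (other BW25113 samples 986 to 1073), 262 normalized counts for gst-6 (other BW25113 samples 207 to 214), 1312 normalized counts for cpr-8 (other BW25113 samples 1050.0 to 1079), 18994 normalized counts for cpr-4 (other BW25113 samples 15115 to 15514), 11432 normalized counts for mrp-5 (other BW25113 samples 9842 to 9999.7), 180.3 normalized counts for Y41C4A.32 (other BW25113 samples 56.7 to 62.5). The same gap set apart BW25113 replicate 2 at 26.9 for aat-7 (others of its group 16.4 to 17.8), OP50 replicate 4 at 21014 for ech-6 (others of its group 21479.9 to 21524), BW25113 replicate 1 at 181 for acdh-8 (others of its group 118.9 to 126), OP50 replicate 1 at 127 for acs-10 (others of its group 105 to 108), BW25113 replicate 2 at 20.2 for gst-29 (others of its group 15.8 to 16.4), OP50 replicate 3 at 85.7 for col-168 (others of its group 111 to 115.5), BW25113 replicate 1 at 700.2 for msp-19 (others of its group 415 to 448), OP50 replicate 2 at 67.7 for WBGene00019208 (others of its group 96.1 to 99.1). No cause of these gaps was tested.

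For 22 named genes the diet effect differed between wild type and rnp-6(G281D) by the limma test of the difference over all 16 samples, with the same thresholds as the wild-type effect. Each is given as the log2FC in wild type, then in rnp-6(G281D), then the difference with its SE.

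The signs were opposite in 7 genes. nhx-6 had 3.35 in wild type against -1.85 in rnp-6(G281D) (difference 5.21 ± 0.96, adjusted p = 0.00301) and cest-8 had 1.45 in wild type against -0.41 in rnp-6(G281D) (difference 1.86 ± 0.25, adjusted p = 0.00014). gst-29 had 1.2404 in wild type against -0.45 in rnp-6(G281D) (difference 1.69 ± 0.44, adjusted p = 0.0329) and cpr-5 had 0.52 in wild type against -0.13 in rnp-6(G281D) (difference 0.66 ± 0.11, adjusted p = 0.00142). cpr-4 had 0.51 in wild type against -0.27 in rnp-6(G281D) (difference 0.78 ± 0.09, adjusted p = 3.78e-05) and C07G1.7 had 1.82 in wild type against -2.63 in rnp-6(G281D) (difference 4.46 ± 0.51, adjusted p = 3.28e-05). hrg-9 had 0.67 in wild type against -0.37 in rnp-6(G281D) (difference 1.04 ± 0.23, adjusted p = 0.0108).

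The effect had the same sign and was larger in wild type in 9 genes. hrg-3 had 3.10 in wild type against 1.238 in rnp-6(G281D) (difference 1.86 ± 0.33, adjusted p = 0.00214) and gsto-1 had 2.01 in wild type against 1.006 in rnp-6(G281D) (difference 1.004 ± 0.24, adjusted p = 0.0185). aat-7 had -1.61 in wild type against -0.26 in rnp-6(G281D) (difference -1.35 ± 0.32, adjusted p = 0.0212) and asp-14 had -1.34 in wild type against -0.15 in rnp-6(G281D) (difference -1.19 ± 0.19, adjusted p = 0.00103). gst-6 had 0.79 in wild type against 0.27 in rnp-6(G281D) (difference 0.52 ± 0.13, adjusted p = 0.0255) and cpr-8 had 0.97 in wild type against 0.40 in rnp-6(G281D) (difference 0.57 ± 0.12, adjusted p = 0.00722). pgp-6 had -1.18 in wild type against -0.46 in rnp-6(G281D) (difference -0.72 ± 0.17, adjusted p = 0.0183) and ctsa-4.1 had 1.19 in wild type against 0.52 in rnp-6(G281D) (difference 0.67 ± 0.13, adjusted p = 0.00623). ctsa-4.2 had 0.83 in wild type against 0.06 in rnp-6(G281D) (difference 0.77 ± 0.10, adjusted p = 6.66e-05).

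It had the same sign and was larger in rnp-6(G281D) in 5 genes. WBGene00019208 had 0.85 in wild type against 2.89 in rnp-6(G281D) (difference -2.05 ± 0.49, adjusted p = 0.0211) and cpr-3 had -0.79 in wild type against -2.67 in rnp-6(G281D) (difference 1.88 ± 0.27, adjusted p = 0.000268). pho-11 had 0.62 in wild type against 1.99 in rnp-6(G281D) (difference -1.37 ± 0.13, adjusted p = 4.95e-06) and acox-1.5 had -0.90 in wild type against -1.55 in rnp-6(G281D) (difference 0.65 ± 0.14, adjusted p = 0.0113). mtl-2 had 0.70 in wild type against 1.97 in rnp-6(G281D) (difference -1.27 ± 0.22, adjusted p = 0.00158). 

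Y41C4A.32 had -0.02 in wild type against -3.84 in rnp-6(G281D) (difference 3.82 ± 0.46, adjusted p = 4.93e-05). Its wild-type value lay between -0.41 and 0.14 over the fits without 1 sample, so its sign in wild type is not set. BW25113 replicate 3, the distant sample for nhx-6, hrg-3, gsto-1, asp-14, gst-6, cpr-8, cpr-4 and Y41C4A.32, enters these differences.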

How the results depend on the processing

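The 537 called genes became 273 (69 higher, 204 lower) with a minimum mean of 100, 1059 (429 higher, 630 lower) with no fold change threshold and 135 (35 higher, 100 lower) with a threshold of 1; these settings change the filter or the rule itself. With all 16 samples in 1 fit, 366 were called, 278 of them lower, and the cause was not tested. Leaving out 1 wild-type sample gave between 287 and 552 called genes, 64 to 120 higher and 218 to 436 lower; the fewest were called without OP50 replicate 1 (287), OP50 replicate 4 (288) and BW25113 replicate 2 (316), and 268 genes were lower without OP50 replicate 2. With the replicate number as a block, 720 genes were called (170 higher, 550 lower) with no wild-type call of a named gene lost or gained. In that fit 460 genes differed between the genotypes, and of the named genes 0 lost that call and 2 gained it, icl-1 (difference 0.68, adjusted p = 0.000119 with the block and 0.0749 without) and fbxa-141 (1.04, 0.0332 and 0.0819). Quantile normalization gave 153 higher and 346 lower, so higher genes made up a larger share of the calls than the 21.97% of the reported fit. The FPKM table gave 435. The count for the difference between the genotypes lay between 303 and 387 over the fits without 1 sample. Of 73 called named genes, 47 kept their calls in each of the 18 alternatives that tested them. In at least 1 alternative 26 lost theirs, and 0 reversed. A gene absent from an alternative was not counted as lost there. For example, aat-7 is under the minimum mean of 100, and msp-19, msp-78 and nspd-5 have no FPKM value. Restricting the test to protein-coding genes, added after seeing the data, gave 539. Low-count genes such as nhx-6, aat-7 and gst-29 have values of few counts in at least 1 group, which limits their fold changes.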

Other observations

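Genes of polyamine synthesis, listed after values had been seen, were higher on BW25113 in 2 of 3 cases (66.7%, beside 0.751% of all genes). odc-1, which encodes ornithine decarboxylase, and smd-1, which encodes S-adenosylmethionine decarboxylase, had log2FC of 0.55 and 0.52; the call of odc-1 was lost without OP50 replicate 3 and that of smd-1 without BW25113 replicate 2 or OP50 replicate 3. Summed over the 3 genes, normalized counts ran from 3451 to 3746 in the BW25113 samples and from 2313 to 3003 in the OP50 samples. Of 7 serine carboxypeptidase genes, also listed after values had been seen, 2 were higher, ctsa-4.1 and ctsa-4.2 (28.6%, beside 0.751% of all genes). Of 10 genes of the mitochondrial genome, 9 had a log2FC below 0, beside 8051 of all 15714 genes tested. Among them 1 was called lower (10.0%, beside 2.67% of all genes), ctc-3, a cytochrome c oxidase subunit gene, at -0.55. With the replicate block 2 were called lower, beside 550 of all genes tested. Summed over the 10 genes, normalized counts ran from 369503 to 431929 in the BW25113 samples and from 469038 to 520130 in the OP50 samples.

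The genes lower on BW25113 were unevenly spread over the chromosomes. Chromosome IV held 135 of the 419, 4.99% of its 2704 genes tested, and chromosome X held 14, 0.643% of its 2177. Of the 135 on chromosome IV, 36 were in the sperm lists, and of the 14 on chromosome X, 0 were. Outside the sperm lists 361 genes were lower. The genes higher on BW25113 numbered 37 of 3024 on chromosome V and 5 of 2552 on chromosome I. These counts are descriptions, and no test of them was run.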
